A study of Rattus norvegicus with 12 samples.

Results

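Fibronectin (Fn1), the thrombospondins Thbs1 and Thbs2, tenascin-C (Tnc), Sparc, periostin (Postn), Tgfbi and Ecm1 were followed in the NRK-52E line, rat kidney cells labelled as tubular epithelial, that received the profibrotic cytokine TGF-beta1 with or without extracellular vesicles (EVs). The 8 genes were taken by name from a count table of 24660 genes, and all 8 passed the count filter to be among the 14184 genes tested. Tnc reached the filter's minimum of 10 counts only in cells given TGF-beta1. Each of 4 groups held 3 RNA sequencing libraries of wild-type cells of this line. The first group received TGF-beta1 and then 3D-EVs (3D-EV cells), and the second TGF-beta1 and then 2D-EVs (2D-EV cells). The third received TGF-beta1 without EVs (TGF-beta1 cells), and for the control cells the labels name no agent. Per the labels, TGF-beta1 was given for 24 h at 10 µg/ml, a dose whose unit is doubtful because this cytokine is commonly used in ng/ml. EVs were given at 500000000 particles/ml for a further 48 h. The submitters describe the 2D preparation as conventional and the 3D preparation as made more efficiently. Neither the cells that released the EVs nor the harvest times of the groups without EVs are stated in the sources used here, so a longer culture and the EVs cannot be told apart in a comparison with TGF-beta1 cells. Nothing in the labels says that the libraries came from separate cultures, so that p-values reflect the spread among libraries alone and that spread may be technical.

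Fibronectin is a secreted dimer that cells pull into fibrils through integrins, and other matrix proteins are laid down on those fibrils. Matricellular proteins are secreted into the matrix without being its scaffold and act by binding receptors, growth factors, proteases or collagen. TGF-beta is a classical inducer of fibronectin and of several matricellular genes in kidney fibrosis, and thrombospondin-1 can in turn release active TGF-beta from its latent complex.

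The promoters of 4 of the genes that were higher with TGF-beta1 are shown because these genes were all higher in TGF-beta1 than in control cells and differed in the size of that change. A RefSeq promoter entry (rat build GRCr8) matched 6 of the 8 genes. The letters are the 250 bases before the annotated start, read 5′ to 3′ on the strand of the gene. They lie at chr3:125510000-125510249 (plus strand) for Thbs1, chr10:40038817-40039066 (minus strand) for Sparc, chr2:140677811-140678060 (plus strand) for Postn and chr2:185981607-185981856 (minus strand) for Ecm1. Capitals mark matches to 4 short motifs searched on both strands.
Thbs1: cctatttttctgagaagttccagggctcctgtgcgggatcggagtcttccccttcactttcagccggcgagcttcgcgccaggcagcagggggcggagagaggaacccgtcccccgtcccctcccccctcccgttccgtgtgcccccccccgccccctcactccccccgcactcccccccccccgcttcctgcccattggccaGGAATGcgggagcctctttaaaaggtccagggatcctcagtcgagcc
Sparc: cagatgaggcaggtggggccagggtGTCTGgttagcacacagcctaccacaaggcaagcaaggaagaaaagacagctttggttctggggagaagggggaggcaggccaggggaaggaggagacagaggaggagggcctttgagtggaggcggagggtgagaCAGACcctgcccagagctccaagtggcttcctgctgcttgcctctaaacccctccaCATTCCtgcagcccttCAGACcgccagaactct
Postn: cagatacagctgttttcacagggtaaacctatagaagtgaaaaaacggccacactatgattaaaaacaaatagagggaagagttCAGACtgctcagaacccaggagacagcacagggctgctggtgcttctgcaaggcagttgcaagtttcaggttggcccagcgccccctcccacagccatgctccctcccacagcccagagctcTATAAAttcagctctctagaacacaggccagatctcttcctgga
Ecm1: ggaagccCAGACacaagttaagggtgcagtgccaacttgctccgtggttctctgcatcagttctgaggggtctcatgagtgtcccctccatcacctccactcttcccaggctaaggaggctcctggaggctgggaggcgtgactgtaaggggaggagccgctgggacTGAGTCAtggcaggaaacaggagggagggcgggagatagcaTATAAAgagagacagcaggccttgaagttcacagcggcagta
The motifs were TGANTCA, the AP-1 site, CAGAC, a SMAD-binding element, GGAATG, the TEAD site, and TATAAA, the TATA box. They stood in 6.34%, 42.9%, 12.1% and 12.9% of 33469 promoter windows of this length. The Thbs1 window held GGAATG and none of the other 3 motifs. The Sparc window held 3 matches to CAGAC, 1 of them on the opposite strand as GTCTG, and CATTCC, which is GGAATG on the opposite strand. Postn and Ecm1 each held 1 CAGAC and 1 TATAAA, with TATAAA starting 44 bases before the start in Postn and 42 in Ecm1. The Ecm1 window was the only one of the 6 with an AP-1 match, TGAGTCA, which 6.34% of all windows hold. Of the windows not shown, Tnc held GTCTG and TATAAA, and Tgfbi held no match. A match is a string of letters and not a measured binding site, and SMAD matches are found in a large share of promoters.

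Library totals lay between 32888125 and 39754319 counts. TMM scaling factors were 1.02 to 1.03 in control libraries and 0.983 to 1.00 in libraries with TGF-beta1, without overlap. A larger factor lowers a level, so the scaling added to each rise over control cells, which weighs most on small rises. Levels are in CPM, counts scaled to a common TMM-adjusted library total, which do not correct for transcript length, so levels of different genes are not ranked against each other. With 0 counts, a level of up to 3 counts, or 0.0764 to 0.0915 CPM by library, cannot be seen, and this limit covers counting error only. Of 11 tubular epithelial markers in the table, Epcam and Pax2 held 0 counts in all 12 libraries, and the summed level of the list was 1460 to 1521 CPM in 3D-EV cells, 1475 to 1513 CPM in 2D-EV cells, 1496 to 1559 CPM in TGF-beta1 cells and 1189 to 1219 CPM in control cells, mostly from Krt8 and Ggt1. The higher sum with TGF-beta1 was not shared by the list. Of its 7 tested genes, edgeR called Krt8 and Ggt1 higher and Aqp1 lower (adjusted p = 0.0245) in TGF-beta1 than in control cells. This stands beside 22% of all tested genes called, and the median log2 fold change of the 7 was -0.26. Krt18, Pax8, Cdh16 and Cdh1, which mark tubular or other simple epithelium, held at most 5, 8, 17 and 30 counts in any library, so that several defining markers of the labelled cell type were near 0. Of 10 fibroblast and pericyte markers, Fap held 0 counts throughout, and the sum was 724 to 764, 702 to 714, 699 to 718 and 744 to 791 CPM in 3D-EV, 2D-EV, TGF-beta1 and control cells, mostly from Mfap5 and Col14a1. Endothelial markers summed to 1.81 to 3.33 CPM and immune markers to 3.20 to 4.56 CPM over all libraries, with Ptprc, C1qa, C1qb, Itgam and Tyrobp at 0 counts. The part of these markers in the results was not tested. In bulk RNA, more cells expressing a gene and more RNA per cell cannot be told apart.

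In TGF-beta1 cells, Fn1, Thbs1, Postn, Ecm1 and Sparc were higher than in control cells, and Thbs2, Tnc and Tgfbi did not pass the test (edgeR's quasi-likelihood test, adjusted p below 0.05). These 5 of 8 genes stand beside 22% of all tested genes called in either direction and 11.8% called higher. The 8 genes were chosen with earlier results of these data known, so these shares are not an independent baseline for them. The 8 genes had a median log2 fold change of 0.62, against a median of 0.00 over all tested genes. That median includes Tnc, which passed the count filter only through libraries given TGF-beta1, so its rise is not independent of the filter. The 5 changes fell into 2 sizes, with Fn1, Thbs1 and Postn between 0.59 and 0.68 on the log2 scale and Sparc and Ecm1 at 0.18 and 0.19. Only 3.63%, 4.42% and 3.79% of tested genes had a larger rise than Fn1, Thbs1 and Postn, while 18.5% had a larger rise than Sparc and 17.3% a larger rise than Ecm1. Libraries of the 2 groups did not overlap for 6 of the 8 genes, against 38% of all tested genes. Together the 8 genes took 0.750% ± 0.0171 of all counts in 3D-EV cells, 0.719% ± 0.0415 in 2D-EV cells, 0.754% ± 0.0241 in TGF-beta1 cells and 0.609% ± 0.0308 in control cells (SD, n = 3 each).

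**Figure D1:**
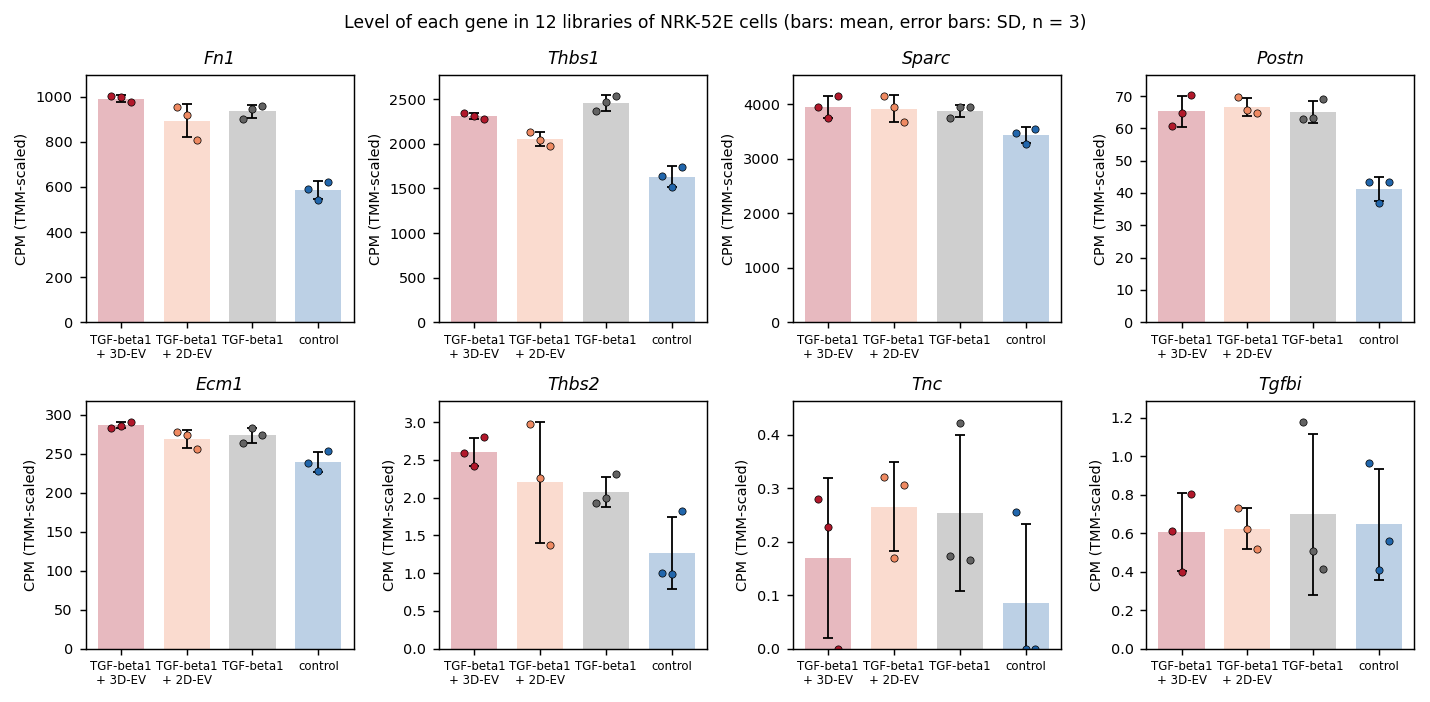
Level of each of the 8 genes in CPM (vertical axes start at 0 and differ between panels) in 3D-EV, 2D-EV, TGF-beta1 and control cells. Points are the 3 libraries of a group, bars their mean and error bars the SD. For Fn1, Thbs1, Sparc, Postn and Ecm1 all 9 libraries with TGF-beta1 lie above all 3 control libraries, whereas the points of Tnc and Tgfbi overlap between groups.

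Fn1, which encodes fibronectin, the fibril-forming glycoprotein bound by integrins, stood at 1001, 998 and 975 CPM in the 3D-EV libraries and at 953, 918 and 810 CPM in the 2D-EV libraries. It stood at 901, 944 and 958 CPM in the TGF-beta1 libraries and at 589, 543 and 623 CPM in the control libraries. All libraries with TGF-beta1 were above all control libraries. Among the 3 groups given TGF-beta1, the 3D-EV libraries were the highest and did not overlap the others, and the 2D-EV and TGF-beta1 libraries overlapped. Fn1 rose 1.60-fold in TGF-beta1 cells over control cells (log2 fold change 0.68, SE 0.05, adjusted p = 5.8e-07), 1.53-fold in 2D-EV cells (0.61, adjusted p = 2.5e-06) and 1.69-fold in 3D-EV cells (0.76, adjusted p = 2.2e-07). These 3 comparisons share the control libraries. The order of the means was 991 ± 14.4 CPM in 3D-EV cells, 935 ± 29.7 in TGF-beta1 cells, 893 ± 74.3 in 2D-EV cells and 585 ± 40.3 in control cells (SD, n = 3 each). Of the neighbours in that order, only 2D-EV and control cells differed by the test. The lowest 2D-EV value, 810 CPM, came from replicate 3, the smallest library of the study.

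Thbs1, which encodes thrombospondin-1, a trimeric glycoprotein that binds CD47 and activates latent TGF-beta, was at 2344, 2313 and 2282 CPM in the 3D-EV libraries and at 2134, 2043 and 1978 CPM in the 2D-EV libraries. It was at 2364, 2465 and 2537 CPM in the TGF-beta1 libraries and at 1643, 1511 and 1740 CPM in the control libraries. The 4 groups did not overlap at all, in the order TGF-beta1, 3D-EV, 2D-EV and control cells. Thbs1 rose 1.51-fold in TGF-beta1 cells over control cells (log2 fold change 0.59, SE 0.04, adjusted p = 2.6e-07), 1.26-fold in 2D-EV cells (0.33, adjusted p = 9.8e-05) and 1.42-fold in 3D-EV cells (0.50, adjusted p = 1.4e-06). Of neighbours in the order of groups, the test separated 2D-EV from control cells, but not TGF-beta1 from 3D-EV or 3D-EV from 2D-EV cells.

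Thbs2, which encodes thrombospondin-2, a related trimer that inhibits angiogenesis, was weakly counted, with 34 to 102 counts per library. Its libraries held 2.60, 2.42 and 2.80 CPM with 3D-EVs and 2.97, 2.27 and 1.37 CPM with 2D-EVs, against 1.93, 1.99 and 2.31 CPM in TGF-beta1 cells and 0.995, 0.992 and 1.82 CPM in control cells. TGF-beta1 and control libraries did not overlap, but control replicate 3 lay just under TGF-beta1 replicate 1. The log2 fold change of TGF-beta1 over control cells was 0.71 (SE 0.28, 95% interval 0.10 to 1.32) and did not pass (adjusted p = 0.0937). Without control replicate 3 it was called (adjusted p = 0.0214). Thbs2 was higher in 3D-EV than in control cells, 2.05-fold (log2 fold change 1.03, adjusted p = 0.0155). Leaving out control replicate 1 (adjusted p = 0.0670) or 2 (adjusted p = 0.0642) ended that call. In 2D-EV cells the value over control cells was 0.80 (adjusted p = 0.0674), called without control replicate 3 or 2D-EV replicate 3 and by DESeq2 (adjusted p = 0.0355).

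Sparc, which encodes a collagen-binding glycoprotein also called osteonectin, was at 3941, 3747 and 4156 CPM in the 3D-EV libraries and at 4148, 3940 and 3664 CPM in the 2D-EV libraries. It was at 3754, 3939 and 3952 CPM in the TGF-beta1 libraries and at 3478, 3268 and 3547 CPM in the control libraries. The 3 groups with TGF-beta1 overlapped one another, and none of their libraries reached down to the control libraries. The rise over control cells was 1.13-fold in TGF-beta1 cells (log2 fold change 0.18, SE 0.05, adjusted p = 0.0117), 1.14-fold in 2D-EV cells (0.19, adjusted p = 0.0088) and 1.15-fold in 3D-EV cells (0.20, adjusted p = 0.0052). The call of TGF-beta1 over control cells was lost with scaling by library totals only (adjusted p = 0.0590) and without control replicate 2 (adjusted p = 0.0538).

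Postn, which encodes periostin, a fasciclin-domain protein that binds integrins and promotes collagen crosslinking, stood at 60.7, 64.8 and 70.2 CPM in the 3D-EV libraries and at 69.7, 65.5 and 64.6 CPM in the 2D-EV libraries. It stood at 62.9, 63.1 and 69.0 CPM in the TGF-beta1 libraries and at 43.4, 37.0 and 43.6 CPM in the control libraries. The 3 groups with TGF-beta1 shared 1 range, well above the control libraries. Postn rose 1.57-fold in TGF-beta1 cells over control cells (log2 fold change 0.65, SE 0.07, adjusted p = 6.9e-06), 1.61-fold in 2D-EV cells (0.69, adjusted p = 5.8e-06) and 1.58-fold in 3D-EV cells (0.66, adjusted p = 6.8e-06). Tgfbi, which encodes another fasciclin-domain protein named for its induction by TGF-beta, held 24, 14 and 27 counts in the 3D-EV libraries and 25, 22 and 17 in the 2D-EV libraries. It held 41, 18 and 15 counts in TGF-beta1 cells and 34, 14 and 20 in control cells, so that the groups overlapped in every comparison. For Tgfbi the log2 fold change of TGF-beta1 over control cells was 0.11, with a 95% interval of -0.86 to 1.08, so that a fall or a rise within these bounds was not detectable at this depth.

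Ecm1, which encodes extracellular matrix protein 1, a secreted glycoprotein that binds other matrix proteins and proteases, was at 283, 285 and 291 CPM in the 3D-EV libraries and at 278, 274 and 256 CPM in the 2D-EV libraries. It was at 264, 283 and 273 CPM in the TGF-beta1 libraries and at 238, 228 and 253 CPM in the control libraries. The control libraries were the lowest 3 of the 12, and the 3D-EV libraries lay at the top, level with the highest TGF-beta1 library. Ecm1 rose 1.14-fold in TGF-beta1 cells over control cells (log2 fold change 0.19, SE 0.04, adjusted p = 0.0041), 1.12-fold in 2D-EV cells (0.17, adjusted p = 0.0111) and 1.20-fold in 3D-EV cells (0.26, adjusted p = 0.00042). The call in 2D-EV cells was lost without control replicate 2 (adjusted p = 0.0564).

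Tnc, which encodes tenascin-C, a hexameric glycoprotein of healing and fibrotic tissue, was near the limit of measurement. It held 11, 8 and 0 counts in the 3D-EV libraries, 11, 6 and 10 in the 2D-EV libraries, 6, 15 and 6 in TGF-beta1 cells and 9, 0 and 0 in control cells. Only the control and 3D-EV groups held a library without counts, and control replicate 1 overlapped each of the other groups. No control library reached the filter's minimum of 10 counts, so a rise over control cells was partly built into Tnc being tested. No comparison of Tnc passed, and the log2 fold change of TGF-beta1 over control cells, 1.53, had an interval of -0.70 to 3.76 (adjusted p = 0.344). The biological coefficient of variation estimated by edgeR was 0.650 for Tnc, 0.328 for Tgfbi and 0.215 for Thbs2, against 0.0436 to 0.0610 for the other 5 genes and a median of 0.0698 over all tested genes.

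**Figure D2:**
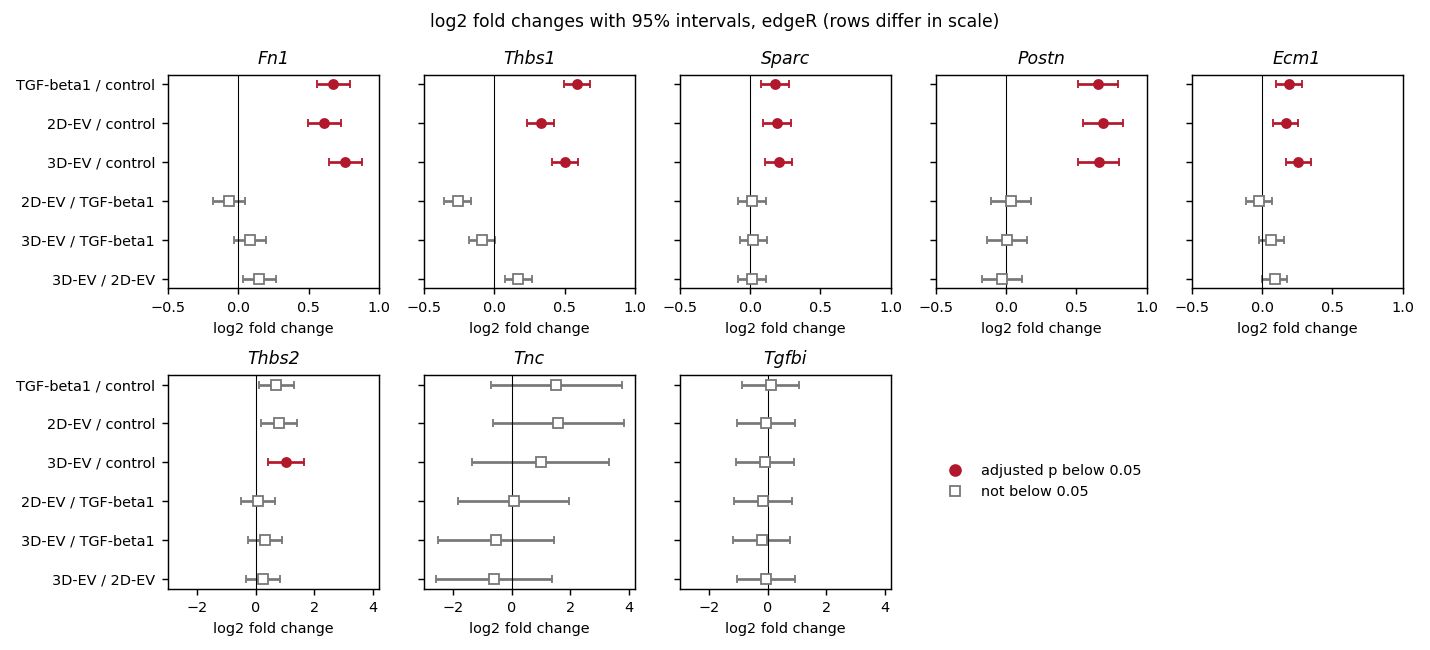
Log2 fold changes of the 8 genes (horizontal axes) in 6 comparisons, with approximate 95% intervals computed from the edgeR test. Filled circles mark an adjusted p below 0.05, and the lower row has a wider axis. In Fn1, Thbs1, Sparc, Postn and Ecm1 the 3 comparisons with control cells lie above 0, and of the comparisons among cells given TGF-beta1 the value of Thbs1 in 2D-EV over TGF-beta1 cells, -0.26, lies farthest from 0.

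EV-treated cells were next compared with TGF-beta1 cells, a comparison in which the EVs and a longer culture cannot be told apart. In 2D-EV against TGF-beta1 cells, 0 of the 8 genes were called by edgeR, 1 had an unadjusted p below 0.05, and DESeq2 and limma-voom each called 1. Over all tested genes edgeR called 0.0282%, all of them lower in 2D-EV cells. The gene in question was Thbs1, with 2052 ± 78.3 CPM in 2D-EV cells against 2456 ± 87.0 CPM in TGF-beta1 cells (SD, n = 3 each). Its log2 fold change was -0.26 (SE 0.04, 95% interval -0.35 to -0.17), and it ranked 7 by p among 14184 genes with an adjusted p of 0.0570. Over 14 alternative fits its adjusted p ran from 6.2e-06 to 0.246, and 4 of them called it, namely DESeq2, limma-voom (adjusted p = 0.0364), no filter on low counts (adjusted p = 0.00336) and a fit of the 2 groups alone (adjusted p = 0.0366). Its libraries did not overlap between the 2 groups, which held for 1 of the 8 genes and 12.4% of all tested genes.

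For each of the other 7 genes the interval of the difference between 2D-EV and TGF-beta1 cells included 0. The log2 fold change of 2D-EV over TGF-beta1 cells was -0.06 for Fn1 (95% interval -0.18 to 0.05), 0.01 for Sparc (-0.09 to 0.11), 0.04 for Postn (-0.11 to 0.18) and -0.02 for Ecm1 (-0.11 to 0.07). For Thbs2 (-0.50 to 0.67), Tnc (-1.83 to 1.96) and Tgfbi (-1.13 to 0.81) the intervals were too wide to show a change of the size seen in Thbs1. The median over the 8 genes was 0.00, as it was over all tested genes.

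In 3D-EV against TGF-beta1 cells, 0 of the 8 genes were called by edgeR, by DESeq2 or by limma-voom, and 0 had an unadjusted p below 0.05. Over all 14184 tested genes edgeR called 0%, with 1027 at an unadjusted p below 0.05, and DESeq2 called 13 genes. Fn1 was at 991 ± 14.4 CPM in 3D-EV cells against 935 ± 29.7 CPM in TGF-beta1 cells, a log2 fold change of 0.08 (95% interval -0.03 to 0.20, adjusted p = 0.782). Thbs1 was at 2313 ± 30.9 CPM in 3D-EV cells against 2456 ± 87.0 CPM in TGF-beta1 cells, a log2 fold change of -0.09 (-0.18 to 0.01, adjusted p = 0.698). The libraries of the 2 groups did not overlap for Fn1, Thbs1 and Thbs2, 3 of the 8 genes, against 13.6% of all tested genes. Thbs2 was at 2.60 ± 0.189 CPM in 3D-EV cells against 2.08 ± 0.204 CPM in TGF-beta1 cells (log2 fold change 0.33, adjusted p = 0.844). The values for Sparc, Postn and Ecm1 were 0.02, 0.01 and 0.07, and those for Tnc and Tgfbi were -0.54 and -0.21.

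**Figure D3:**
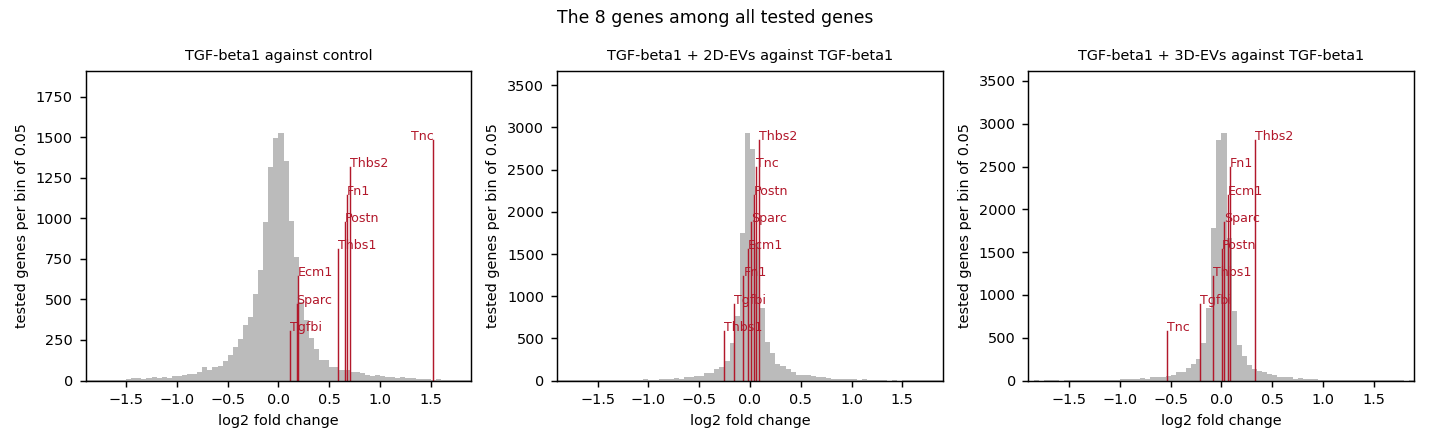
Distribution of the log2 fold changes of all 14184 tested genes (grey, genes per bin of 0.05, shown between -1.9 and 1.9) with the 8 genes as red lines, for TGF-beta1 over control, 2D-EV over TGF-beta1 and 3D-EV over TGF-beta1 cells. The heights of the red lines carry no value. All 8 genes lie above 0 in the first panel, and in the second Thbs1, at -0.26, is the lowest of the 8. Tnc passed the count filter only through libraries given TGF-beta1.

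Between 3D-EV and 2D-EV cells, 0 of the 8 genes were called by edgeR, 2 had an unadjusted p below 0.05, DESeq2 called 1 and limma-voom 0, beside 0.00705% of all tested genes called by edgeR. Thbs1 was at 2313 ± 30.9 CPM in 3D-EV cells and 2052 ± 78.3 CPM in 2D-EV cells (log2 fold change 0.17, 95% interval 0.08 to 0.27, adjusted p = 0.594 by edgeR). It was the gene DESeq2 called (adjusted p = 0.0494). Fn1 was at 991 ± 14.4 CPM in 3D-EV cells and 893 ± 74.3 CPM in 2D-EV cells (log2 fold change 0.15, 95% interval 0.03 to 0.27, adjusted p = 0.618). Fn1, Thbs1 and Ecm1 did not overlap between the 2 groups, 3 of the 8 genes against 11.4% of all tested genes. The unadjusted intervals of Thbs1 and Fn1 leave out 0, and edgeR called neither gene after adjustment over all genes. Against control cells 6 of the 8 genes were called higher in 3D-EV cells (beside 23% of tested genes called and 12.2% called higher) and 5 in 2D-EV cells (beside 18.6% and 10.5%). Without overlap were 6 genes in 3D-EV and 5 in 2D-EV against control cells, beside 38% and 33.2% of tested genes.

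Ratios of the counts of 2 genes within a library do not depend on how libraries are scaled. Over the 5 strongly counted genes there are 10 such ratios, and those given here were chosen after their values were seen. Thbs1 held 2.34, 2.32 and 2.34 counts per Fn1 count in the 3D-EV libraries and 2.24, 2.23 and 2.44 in the 2D-EV libraries. It held 2.62, 2.61 and 2.65 counts per Fn1 count in TGF-beta1 cells and 2.79, 2.78 and 2.79 in control cells. The ratio was thus lowest in both EV groups, which overlapped each other, higher in TGF-beta1 cells and highest in control cells. Each of the other 5 pairs of groups did not overlap, with an exact two-sided permutation p of 0.1, the smallest that 3 against 3 libraries allow, and of 0.8 for 3D-EV against 2D-EV cells. Adjusted over the 10 ratios of a comparison, the p of these 5 pairs lay between 0.125 and 0.333. The mean ratio was 2.33 ± 0.0129 in 3D-EV cells, 2.30 ± 0.121 in 2D-EV cells, 2.63 ± 0.0189 in TGF-beta1 cells and 2.79 ± 0.0048 in control cells (SD, n = 3 each). Thbs1 per Ecm1 ordered the groups otherwise, with means of 8.08 in 3D-EV, 7.62 in 2D-EV, 8.98 in TGF-beta1 and 6.81 in control cells. Thbs1 per Postn had means of 35.6 in 3D-EV, 30.8 in 2D-EV, 37.8 in TGF-beta1 and 39.5 in control cells, and the 2D-EV libraries lay below those of every other group, which overlapped one another. Fn1 per Postn, at 15.3 in 3D-EV, 13.4 in 2D-EV, 14.4 in TGF-beta1 and 14.2 in control cells, overlapped in every pair of groups. Sparc per Ecm1, at 13.8 in 3D-EV, 14.5 in 2D-EV, 14.2 in TGF-beta1 and 14.3 in control cells, overlapped in every pair but 3D-EV against 2D-EV cells. In TGF-beta1 against control cells 7 of the 10 ratios did not overlap, in 2D-EV against TGF-beta1 cells 5, in 3D-EV against TGF-beta1 cells 3 and in 3D-EV against 2D-EV cells 5. Ratios that share a gene are not independent of each other. The share without overlap over ratios of other genes was not computed, so these counts have no baseline.

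**Figure D4:**
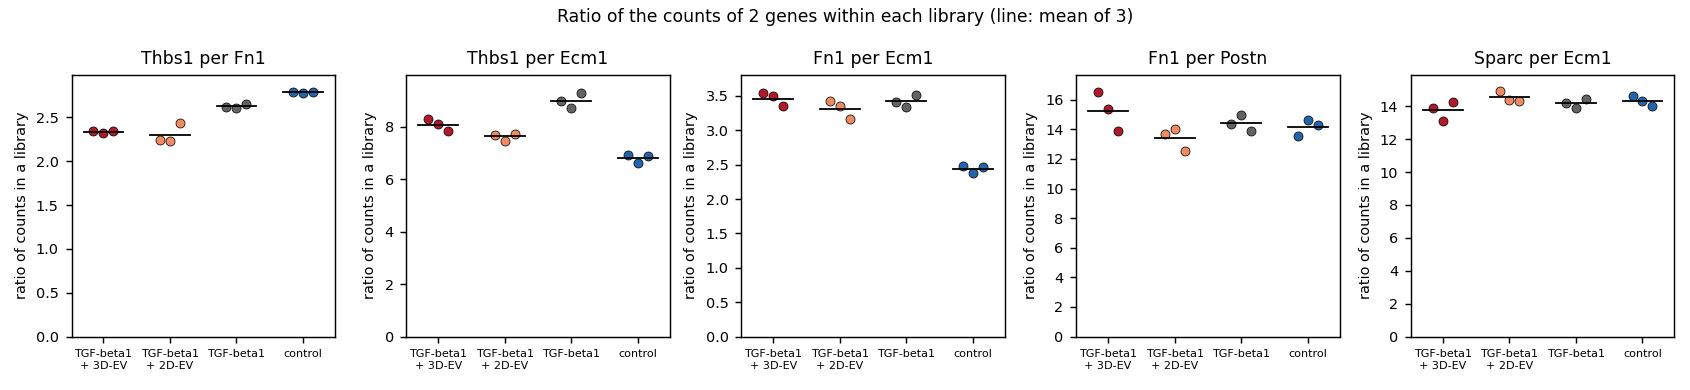
Counts of 1 gene per count of another within each library (vertical axes start at 0) for 5 of the 10 ratios, in 3D-EV, 2D-EV, TGF-beta1 and control cells. Points are libraries and lines the mean of 3. Thbs1 per Fn1 stands at 2.33 in 3D-EV and 2.30 in 2D-EV cells, below 2.63 in TGF-beta1 and 2.79 in control cells, while the points of Fn1 per Postn overlap between groups.

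Part of the spread within groups went with library size. In each group the library with the smallest total (3D-EV replicate 3, 2D-EV replicate 3, TGF-beta1 replicate 1 and control replicate 2) had the lowest level of Fn1 and of Thbs1, in 4 of 4 groups, which holds for 1.61% of all tested genes. For Thbs2, Sparc, Postn and Ecm1 this held in 3 of 4 groups (12.5% of tested genes), and for Tnc and Tgfbi in 2. The mean total was 36516294 counts in 3D-EV cells, 34180012 in 2D-EV cells, 35964078 in TGF-beta1 cells and 34163167 in control cells. With the log2 library total as a covariate, the log2 fold change of Fn1 in TGF-beta1 over control cells was 0.63, against 0.68 without it. The value of Thbs1 was then -0.22 in 2D-EV over TGF-beta1 cells (adjusted p = 0.215) and 0.13 in 3D-EV over 2D-EV cells (adjusted p = 0.487), and Thbs2 in 3D-EV over control cells, 0.89, was no longer called (adjusted p = 0.0652). Whether library size, or something that moves with it, had a part in these levels was otherwise not tested.

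**Figure D5:**
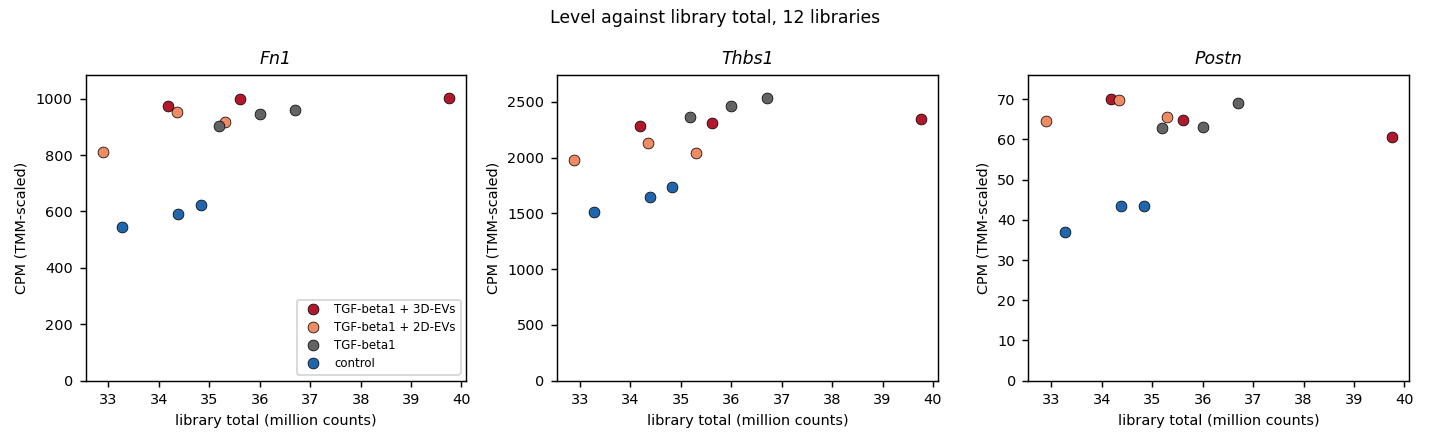
Level of Fn1, Thbs1 and Postn in CPM (vertical axes start at 0) against the library total, for 12 libraries coloured by group. Within each group the leftmost point is the lowest for Fn1 and Thbs1, and the control points lie below all others.

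Genes that act with these proteins give the setting. Each count of TGF-beta1 against control cells below stands beside shares of all tested genes, 11.8% called higher and 22% called in either direction. The lists here and in the next paragraph were chosen with earlier results of these data known, so these shares are not an independent baseline for them. Of 12 tested receptors, 8 were higher in TGF-beta1 than in control cells and 0 lower (median log2 fold change 0.23, against 0.00 over all tested genes). They included the integrin subunits Itgb5, a partner of the alpha-v chain (1143 CPM in TGF-beta1 against 770 CPM in control cells, log2 fold change 0.57, adjusted p = 1.4e-07), and Itgav, that chain itself (631 CPM in TGF-beta1 against 524 CPM in control cells, 0.27, adjusted p = 4.4e-06). Of 9 partners of fibronectin assembly, 7 were higher and 0 lower (median 0.38), with Fbln2, a fibulin that binds fibronectin, at 164 CPM in TGF-beta1 against 44.2 CPM in control cells (1.89) and Fbln1, another fibulin, at 63.9 CPM in TGF-beta1 against 49.1 CPM in control cells (0.38). Among 8 tested relatives of the 8 genes by family, 2 were higher and 0 lower, beside 11.8% of all tested genes called higher. So few genes cannot set this list apart from that share. The 2 were Fstl1, a follistatin-like protein of the Sparc family (log2 fold change 0.10, adjusted p = 0.0130), and Tnn, a tenascin (0.75, adjusted p = 0.0288). The thrombospondin Thbs3 was among those not called, at 61.7 CPM in TGF-beta1 against 62.1 CPM in control cells (-0.01), and is named after its value was seen. In these 3 lists edgeR, DESeq2 and limma-voom called 0 genes in 2D-EV or 3D-EV against TGF-beta1 cells, and 0 in 3D-EV against 2D-EV cells. At an unadjusted p below 0.05 stood 0, 3 and 2 genes of the receptors, partners and relatives in 2D-EV against TGF-beta1 cells, and 2, 3 and 0 in 3D-EV against TGF-beta1 cells.

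Of 8 other matricellular and adhesive genes, 3 were higher in TGF-beta1 than in control cells and 0 lower, beside 11.8% of all tested genes called higher, among them Ccn4 (498 CPM in TGF-beta1 against 344 CPM in control cells, log2 fold change 0.54, adjusted p = 1.5e-08). Ccn2, a matricellular protein also known as connective tissue growth factor, was the only one of the list called by edgeR in a comparison among cells given TGF-beta1. Ccn2 stood at 4066, 4138 and 4011 CPM in the 3D-EV libraries, at 3384, 3437 and 3529 CPM in the 2D-EV libraries, at 4114, 4074 and 3989 CPM in the TGF-beta1 libraries and at 2832, 2765 and 2870 CPM in the control libraries. It was lower in 2D-EV than in TGF-beta1 cells (log2 fold change -0.23, SE 0.03, adjusted p = 0.0024) and higher in 3D-EV than in 2D-EV cells (0.24, adjusted p = 0.0019). In 2D-EV against TGF-beta1 cells 3 of these 8 genes had an unadjusted p below 0.05, DESeq2 called 2 and limma-voom 1. The log2 fold change of Thbs1 was -0.26 in 2D-EV against TGF-beta1 cells and 0.17 in 3D-EV against 2D-EV cells, without a call by edgeR, while DESeq2 called both and limma-voom called that in 2D-EV against TGF-beta1 cells. Of 10 proteases and inhibitors, 4 were higher in TGF-beta1 than in control cells, beside the same 11.8%, among them the metalloproteinase inhibitor Timp1 at 352 CPM in TGF-beta1 against 281 CPM in control cells (log2 fold change 0.33). There 2 were lower, so that 6 of the 10 were called, beside 22% of all tested genes. The lower genes were the thrombospondin-repeat protease Adamts1 (7.37 CPM in TGF-beta1 against 11.9 CPM in control cells, -0.69) and the gelatinase Mmp2 (24.1 CPM in TGF-beta1 against 34.7 CPM in control cells, -0.52). In 2D-EV against TGF-beta1 cells edgeR called 0 of these 10, with 1 at an unadjusted p below 0.05, and DESeq2 and limma-voom called 1 each. In 3D-EV against TGF-beta1 cells all 3 tools called 0 of them, with 0 at an unadjusted p below 0.05. Between 3D-EV and 2D-EV cells edgeR and limma-voom called 0 of them and DESeq2 1, with 2 at an unadjusted p below 0.05. Of 10 genes taken as a check of the TGF-beta response, which include Ccn2, 9 were higher in TGF-beta1 than in control cells and 0 lower, beside 11.8% of all tested genes called higher. In 2D-EV against TGF-beta1 cells 2 of them, Ccn2 and Acta2, smooth muscle actin (723 CPM in 2D-EV against 861 CPM in TGF-beta1 cells, log2 fold change -0.25, adjusted p = 0.0102), were lower by edgeR. There 7 of the 10 had an unadjusted p below 0.05, DESeq2 called 5 and limma-voom 3, beside 0.0282% of all tested genes called by edgeR. In 3D-EV against TGF-beta1 cells 0 were called by edgeR, DESeq2 or limma-voom, with 1 at an unadjusted p below 0.05. Compared directly, 3D-EV and 2D-EV cells differed by edgeR in 1 of these 10 genes, Ccn2, beside 0.00705% of all tested genes. There 5 of the 10 had an unadjusted p below 0.05, DESeq2 called 4 and limma-voom 2.

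The genes most like each of the 8 across the 12 libraries were found by Pearson's r of log2(CPM + 1) over 10660 other genes with a mean of at least 1 CPM. Genes whose symbols are placeholders or mark pseudogenes were left out of this search. The libraries share their groups and sizes, so these values describe likeness of pattern only. Naaa (r = 0.993) and Pam (r = 0.990) were most like Fn1. Cd14 (r = 0.986) and Cald1 (r = 0.980) were most like Thbs1, and both followed its order of groups, Cd14 with 244 ± 1.09 CPM in 3D-EV, 224 ± 6.12 in 2D-EV, 248 ± 3.78 in TGF-beta1 and 185 ± 7.64 in control cells. Postn was closest to Atp6v0a1 (r = 0.985) and Abhd12 (r = 0.982). Sparc was close to Dnase2 (r = 0.972), and Ecm1 to Ctsb (r = 0.968). The weakly counted genes had lower values, with Tpcn1 (r = 0.955) and Ppp2r5b (r = 0.945) for Thbs2, Gpatch2 (r = 0.871) and Kng1 (r = 0.860) for Tnc, and Rpl7a (r = 0.841) and Clec2dl1 (r = 0.835) for Tgfbi.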

How the data were processed

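RNA of 12 libraries was sequenced, 3 in each of 4 groups taken from the sample labels. Per the submitters' processing notes, fastp, HISAT2, StringTie and DESeq2 were used with build mRatBN7.2. Their versions, the strand handling and the counting settings are not stated there. The authors deposited unnormalized whole-number counts for 24660 genes, in a joint table whose columns were the same as the 12 tables of single libraries. A count of 1 stood in 1514 cells and a count of 2 in 5687, so the smallest counts do not behave as plain read counts.

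Tests were run with edgeR 4.0.16 in R 4.3.3 (quasi-likelihood test, TMM scaling, filterByExpr with a minimum count of 10, all 12 libraries in 1 fit, no covariates). Benjamini-Hochberg adjustment ran over 14184 genes, and an adjusted p below 0.05 was called. Within groups, the chi-square per degree of freedom between libraries was 6.66 to 10.6 over 12 pairs, above counting error alone. Alternatives were other scaling factors, no filter, DESeq2 1.42.0 on the filtered genes, limma-voom 3.58.1, only the 2 groups compared, a replicate block and each library left out, plus, added after seeing the data, the library total as a covariate. The fits were tested on data simulated for TGF-beta1 against control cells only. There all genes shared a fixed spread, and changes were placed only in more strongly counted genes. That test does not cover Thbs2, Tnc and Tgfbi or the comparisons among cells given TGF-beta1. The 8 genes, the context and marker lists and the tests were chosen with earlier results of these data known. All 8 genes are named. Of each context list and comparison, up to 2 raised and 2 lowered genes with the smallest p fell under the naming rule, and only some of them are given; for each of the 8 genes, the 2 most like it fell under it too. Some genes under the rule are not reported here. Motif matches and ratios were computed from the promoter letters of RefSeq (GRCr8, not the build of the counts) and from the counts.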

Additional observations from a re-analysis of the deposited data

How the results depend on the processing

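Among the 8 genes, the number called in 2D-EV against TGF-beta1 cells was 0 as reported and 1 with no filter on low counts, DESeq2, limma-voom or only the 2 groups compared, and in 3D-EV against 2D-EV cells it was 0 as reported and 1 with DESeq2; the gene was Thbs1 each time. Over all genes, 4 were called in 2D-EV against TGF-beta1 cells, and 14 with no filter, 56 with DESeq2, 9 with limma-voom and 7 with the 2 groups alone. In 3D-EV against TGF-beta1 cells it was 0, and 13 with DESeq2. In 3D-EV against 2D-EV cells it was 1, and 8 with no filter, 21 with DESeq2 and 2 each with limma-voom, the 2 groups alone, the replicate block and the library total as a covariate. Leaving out 1 library, 4 to 6 of the 8 genes were called in TGF-beta1 and in 2D-EV against control cells, 5 to 6 in 3D-EV against control cells and 0 in each comparison among cells given TGF-beta1. Over all genes these ranges were 2419 to 2555 in TGF-beta1, 2006 to 2311 in 2D-EV and 2408 to 2679 in 3D-EV against control cells, 1 to 3 in 2D-EV and 0 to 2 in 3D-EV against TGF-beta1 cells, and 1 to 3 in 3D-EV against 2D-EV cells. With library totals only, the share of higher genes among those called was 33.8% in TGF-beta1, 39.0% in 2D-EV and 31.0% in 3D-EV against control cells, against 53.6%, 56.4% and 53.1% as reported. Ecm1, Fn1, Postn, Thbs1 and Sparc kept their direction over control cells in all alternatives. Tnc was called in TGF-beta1 and in 2D-EV against control cells without control replicate 1, against 0 counts. Signs turned only in values that were not called. Leaving out 1 library, the range in 2D-EV over TGF-beta1 cells was -0.050 to 0.013 for Ecm1, -0.11 to 0.00076 for Fn1, -0.030 to 0.059 for Sparc, -0.19 to 0.33 for Thbs2, -0.17 to 0.64 for Tnc and -0.43 to 0.44 for Tgfbi. In 3D-EV over TGF-beta1 cells it was -0.050 to 0.055 for Postn, -0.014 to 0.060 for Sparc, -1.11 to 0.036 for Tnc and -0.48 to 0.39 for Tgfbi. In 3D-EV over 2D-EV cells it was -0.087 to 0.019 for Postn, -0.035 to 0.055 for Sparc, -0.0076 to 0.51 for Thbs2 and -0.30 to 0.18 for Tgfbi. Over control cells Tgfbi ranged from -0.49 to 0.52 in TGF-beta1, -0.29 to 0.36 in 2D-EV and -0.35 to 0.32 in 3D-EV cells. With library totals only, Postn was -0.00088 in 3D-EV over TGF-beta1 cells and Sparc -0.0075 in 3D-EV over 2D-EV cells; Tgfbi in 2D-EV over control cells was 0.029 with limma-voom and 0.016 with the replicate block; with the covariate Sparc was -0.0088 and Tgfbi 0.048 in 3D-EV over 2D-EV cells. The labels do not say whether same-numbered libraries were paired, and the main fit did not pair them. Over 18 such pairs residuals correlated by -0.11 to 0.11, 1 above 0.1, and 4 of 12 libraries were closest to their own number. With 3 libraries per group these values cannot show that pairing was absent. With the replicate block 2858, 2362 and 2957 genes were called in TGF-beta1, 2D-EV and 3D-EV against control cells, and the numbers called among the 8 genes stayed 5, 5 and 6. The causes of these differences were not tested. Depth limits Tnc, Tgfbi and Thbs2, whose counts were at most 15, 41 and 102 per library.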
